A study of Mus musculus with 6 samples.

Results

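The genes described here are 3 cadherins and 7 further genes whose proteins build desmosomes, measured in hepatic progenitor cells of the mouse. They were chosen by gene symbol alone: Cdh1, Cdh2, Cdh16, Dsp, Dsg2, Dsc2, Jup, Pkp1, Pkp2 and Pkp3, with every probe that carries one of these symbols in the deposited table. All 10 had a probe, out of 17893 genes named on the array, and together they had 14 of its 25697 probes. Transcript levels came from 6 single-colour Illumina bead arrays, 3 of cells from Egfr fl/fl mice and 3 of cells from Met fl/fl mice, all on the C57BL/6 background and all from livers that the series calls controls. A floxed (fl) allele is flanked by recombination sites and stays intact until a recombinase cuts it, and the labels name no recombinase, so neither Egfr, the receptor for epidermal growth factor, nor Met, the receptor for hepatocyte growth factor, is stated to be deleted in either group. The labels give neither the animals' age nor whether the cells were cultured. They also leave unsaid whether replicates are different animals or different cultures, so p-values reflect only how these samples vary, and that variation may be technical.

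Cadherins are membrane proteins that bind the same kind of protein on a neighbouring cell in the presence of calcium. The classical members E-cadherin (Cdh1) and N-cadherin (Cdh2) are tied to actin by catenins and form adherens junctions, while Ksp-cadherin (Cdh16), known from kidney epithelium, has a short tail that lacks the catenin-binding region. Desmosomes use the cadherins desmoglein and desmocollin outside the cell, plakoglobin (Jup) and plakophilins inside, and desmoplakin (Dsp) as the link to keratin filaments. In the adult liver bile duct cells and hepatocytes both carry E-cadherin and desmosomes, and hepatocytes also carry N-cadherin.

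The mean deposited intensity was 241 to 398 units over the 6 arrays, and 43.8% to 45.3% of all probes were detected, meaning that the deposited detection p-value against the negative controls was under 0.05. Between 8 and 10 of the 14 member probes were detected on an array. Pearson r over the tested probes was 0.967 to 0.992 within a group and 0.891 to 0.921 between groups. The progenitor and biliary markers Spp1, Krt19, Sox9, Krt7 and Cd24a were detected on all 6 arrays, and Prom1 on 0. In the direction of Cdh1 and Dsg2, Sox9 was 3.68-fold and Krt7 2.88-fold higher in Egfr fl/fl (limma adjusted p = 1.97e-05 and 0.000551), while Spp1, Krt19 and Cd24a did not pass. The summed normalized intensity of the list was 9874 to 11750 units in Egfr fl/fl against 7517 to 9914 units for Met fl/fl, with 62.3% to 78.7% of it from Spp1. Of 9 hepatocyte markers with a probe 5 were detected on 0 arrays, among them Alb and Cps1, and 1 on all 6. The hepatocyte list summed to 2141 to 2997 units in Egfr fl/fl and to 2871 to 3856 units in Met fl/fl, but at least 95.4% of each sum was Ttr, which did not pass (limma adjusted p = 0.139). Of its other genes Apoa1 passed as higher in Met fl/fl and Serpina1a as higher in Egfr fl/fl. Each was detected only in the group where it is higher, and reached the test through that group alone. Of 5 mesothelium markers with a probe 4 were detected, and they did not move together: 2 passed as higher in Egfr fl/fl and 1 as higher in Met fl/fl. Gpm6a passed as higher in Egfr fl/fl (limma adjusted p = 0.000281), but was detected only there and reached the test through that group alone. Upk3b did not pass by its brightest probe (limma adjusted p = 0.0556), while its other tested probe was higher in Egfr fl/fl (limma adjusted p = 0.00336). Upk1b had an Egfr fl/fl level 60.9-fold higher (limma adjusted p = 3.63e-09) and Msln a Met fl/fl level 5.60-fold higher (2.98e-06), and these made up most of the list's sums of 2579 to 2825 and 1394 to 1589 units. The part of these markers' cell types in the members' results was not tested. Egfr fl/fl replicate 3 stood closer to the average of the Met fl/fl arrays than to that of its own group's replicates 1 and 2 in 4836 of the 11578 probes tested (41.8%), in 784 of the 4613 that passed (17%), and in 3 of the 9 member probes tested (33.3%). The labels name no slide or batch, and one that follows genotype cannot be told apart from it. In bulk samples fewer cells of a type and less RNA per cell cannot be told apart.

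Between the genotypes Cdh1 and Dsg2 were higher in Egfr fl/fl, Cdh16 and, by little, Pkp1 were higher in Met fl/fl, and Dsp and Pkp2 did not pass the test. Cdh2 was detected only on 2 of the 3 Egfr fl/fl arrays. Dsc2 and Pkp3 were detected on 0 arrays and Jup on 1. Of the 14 probes 9, from 6 genes, were detected on at least 3 arrays and were tested with limma, and 5 of these passed at an adjusted p under 0.05, with 3 higher in Egfr fl/fl and 2 higher in Met fl/fl. Over all 11578 tested probes 39.8% passed, 18.2% higher in Egfr fl/fl and 21.6% higher in Met fl/fl. By each gene's brightest probe 4 of the 6 tested members passed, 2 in each direction, where 41.4% of all genes did (18.6% higher in Egfr fl/fl, 22.8% higher in Met fl/fl). With so many calls across the array and so few members, these counts do not set the members apart, and Pkp1 reached the test only through the Met fl/fl arrays, where it is higher. Cdh16, detected on 3 Met fl/fl arrays and 1 Egfr fl/fl array, also needed the Met fl/fl arrays to reach it. The median log2 difference, always Met fl/fl minus Egfr fl/fl, was 0.14 over the 9 member probes and 0.06 over all tested probes. An exact permutation test of 3 arrays against 3 cannot give a two-sided p below 0.1.

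**Figure D1:**
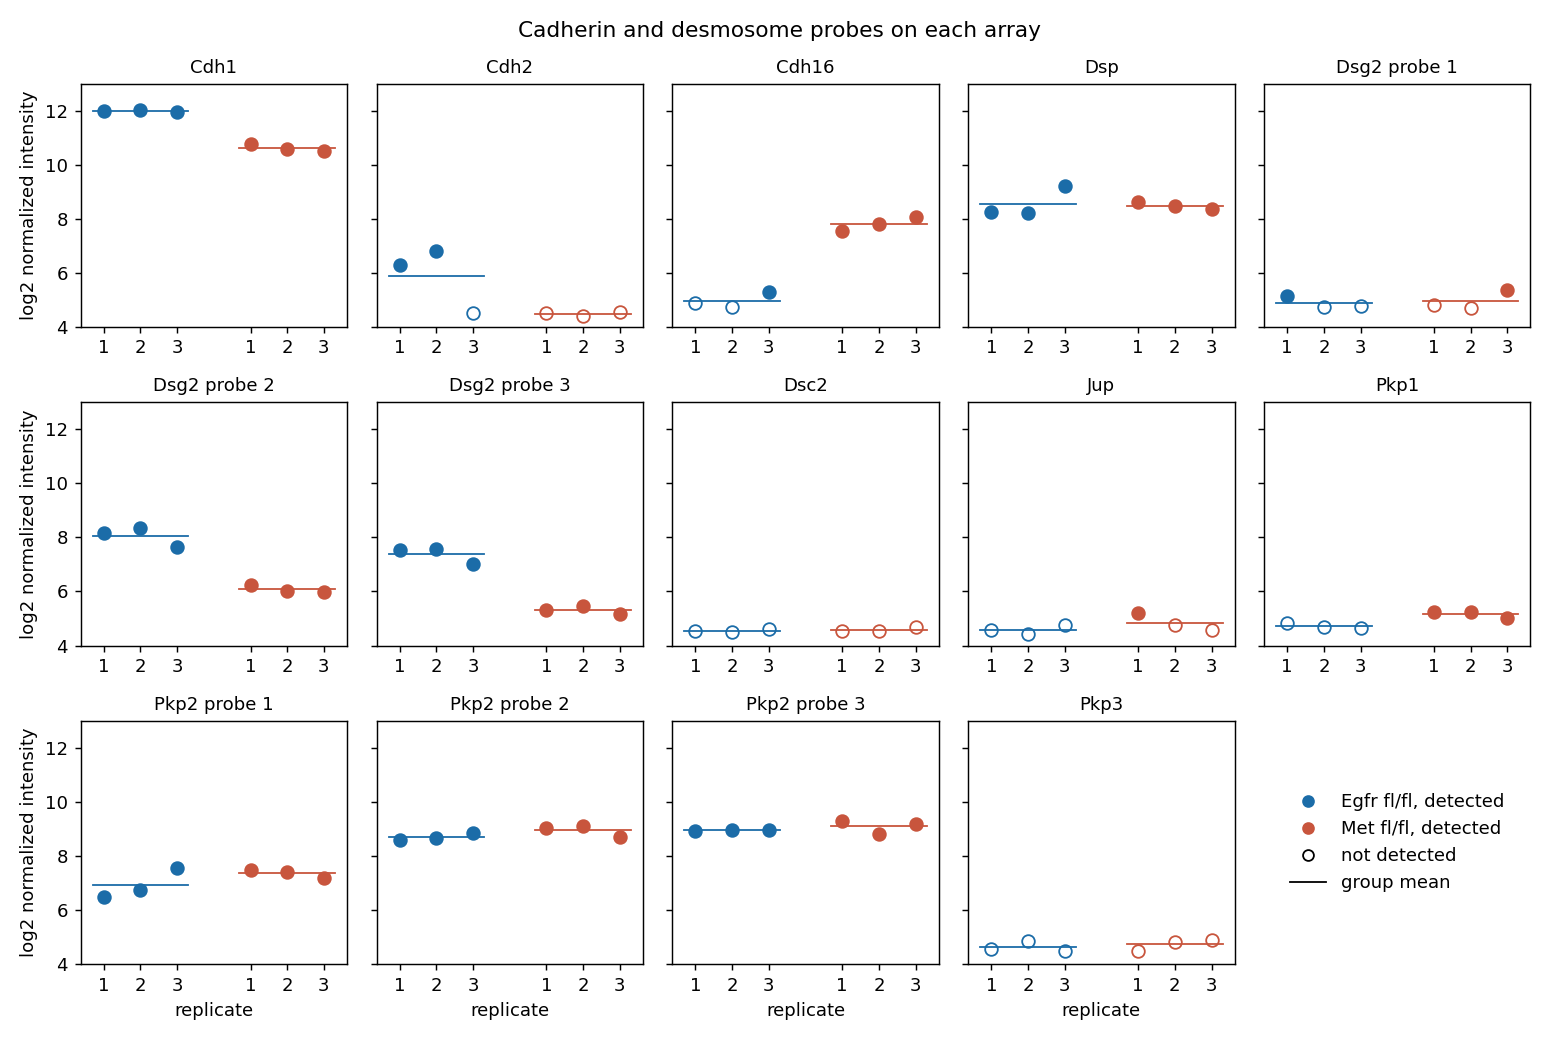
Normalized intensity (log2 scale) of each of the 14 member probes on each array, in panels by probe, with replicates 1 to 3 of Egfr fl/fl in blue and of Met fl/fl in red. Filled points were detected, open points were not, and lines are group means. Cdh1 and 2 Dsg2 probes are separated downward in Met fl/fl and Cdh16 upward, while Egfr fl/fl replicate 3 stands off from replicates 1 and 2 for Cdh2, Dsp and Pkp2 probe 1.

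Cdh1, whose protein holds epithelial cells together at adherens junctions, had 1 probe (ILMN_2628629). Egfr fl/fl replicates 1, 2 and 3 gave deposited intensities of 3339, 3473 and 4338 units, and the Met fl/fl replicates, in the same order as for all values that follow, gave 2404, 1506 and 1359 units. All 6 arrays detected it, and the lowest Egfr fl/fl value was above the highest Met fl/fl value. After normalization Egfr fl/fl had a log2 intensity of 11.99 ± 0.02 (SD, n = 3) and Met fl/fl one of 10.62 ± 0.14, a difference of -1.37 ± 0.11 (SE), or 2.58-fold (limma adjusted p = 1.38e-05). Egfr fl/fl replicate 3 differed by only -0.03 on the log2 scale from the mean of replicates 1 and 2, so Cdh1 did not share the departure of that array. The groups did not overlap in 5 of the 9 tested member probes, against 50.1% of all tested probes.

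Cdh16 showed the opposite direction. The Egfr fl/fl arrays gave 9.61, 6.38 and 27.0 units for its probe (ILMN_2670038), and only replicate 3 was detected. The Met fl/fl arrays gave 244, 210 and 228 units, each detected. No Egfr fl/fl value came near the Met fl/fl range. Egfr fl/fl had a log2 intensity of 4.96 ± 0.28 (SD, n = 3) and Met fl/fl one of 7.80 ± 0.25. The fitted difference of 2.84 ± 0.22 (SE) exceeded that of 99.7% of tested probes (limma adjusted p = 7.67e-06). Because Egfr fl/fl was below detection on 2 arrays, the fold is a lower bound: the Met fl/fl level of Cdh16 was at least 6.79-fold higher, with each undetected Egfr fl/fl signal raised to the lowest detected signal of its array. The size depended on how dim signals were treated, with a log2 difference of 1.98 when an offset of 50 was added to the intensities in place of 16 and 3.54 when intensities under 16 were raised to 16 without background correction.

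Cdh2, the cadherin of mesenchymal and neural cells that hepatocytes also carry, was detected on 2 arrays only, both Egfr fl/fl. In Egfr fl/fl its only probe (ILMN_2605503) gave 50.1 units on replicate 1 and 79.6 units on replicate 2, both detected, and -5.08 units on replicate 3, which was not. The Met fl/fl arrays gave -4.50, -10.9 and -2.27 units, none detected. Egfr fl/fl replicate 3 thus lay inside the Met fl/fl range, the groups overlapped, and the probe was detected on too few arrays for the main test. With no filter on dim probes the fitted log2 difference was -1.38 (limma adjusted p = 0.0389 over 25697 probes), while the exact two-sided permutation p was 0.3. The sum of a marker list of stellate cells and fibroblasts was also higher in Egfr fl/fl, mostly through the brightest probe of Acta2. The summed normalized intensity of its 10 genes with a probe came to 737, 839 and 409 units for Egfr fl/fl replicates 1, 2 and 3 but 89.2 to 98.2 units for Met fl/fl. Of those 10 genes 5 were detected on at least 1 array, and the defining Col1a1, Col3a1, Pdgfra, Lum and Thy1 on 0. Acta2 is a contractile actin that other cells can also express. Its brightest probe was detected only on Egfr fl/fl arrays, where it is higher, and reached the test through them alone. By that probe the Egfr fl/fl level of Acta2 was at least 17.7-fold higher (limma adjusted p = 2.63e-06). The probe gave 75.4% to 88.7% of the list's Egfr fl/fl sums, while the 3 other tested probes of Acta2 differed by -1.05, -1.11 and -0.51 on the log2 scale. The part of such cells in the Cdh2 signal was not tested.

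The desmosomal cadherins were represented by Dsg2, desmoglein 2, and Dsc2, desmocollin 2, the isoforms found in simple epithelia. For Dsg2 probe 2 (ILMN_1242566) Egfr fl/fl gave 217, 260 and 221 units and Met fl/fl 82.1, 47.0 and 42.4 units. Dsg2 probe 3 (ILMN_2955047) gave 129, 143 and 138 units in Egfr fl/fl, and Met fl/fl gave 28.7, 26.2 and 16.01 units. Both were detected on all 6 arrays and neither had overlapping groups. On probe 2 Egfr fl/fl had a log2 intensity of 8.06 ± 0.36 (SD, n = 3) and Met fl/fl one of 6.09 ± 0.14, or 3.92-fold less (difference -1.97 ± 0.22 SE, limma adjusted p = 9.10e-05). For probe 3 the difference was -2.06 ± 0.21 (SE), or 4.16-fold, with an adjusted p of 5.71e-05 in limma. Both of these probes read lower on Egfr fl/fl replicate 3 than on replicates 1 and 2 after normalization, by 0.61 and 0.54 on the log2 scale. With the offset of 50 the difference of probe 3 was -1.44, and with intensities under 16 raised to 16 it was -2.70. Dsg2 probe 1 (ILMN_1215475) did not report this change. It was detected only on Egfr fl/fl replicate 1 (16.3 units) and Met fl/fl replicate 3 (21.3 units), the other 4 arrays lay between 3.11 and 8.51 units, and it was too dim to test. The probe of Dsc2 stayed between -4.13 and 3.38 units and was detected on 0 of 6 arrays, so its level was not measurable here in either genotype.

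**Figure D2:**
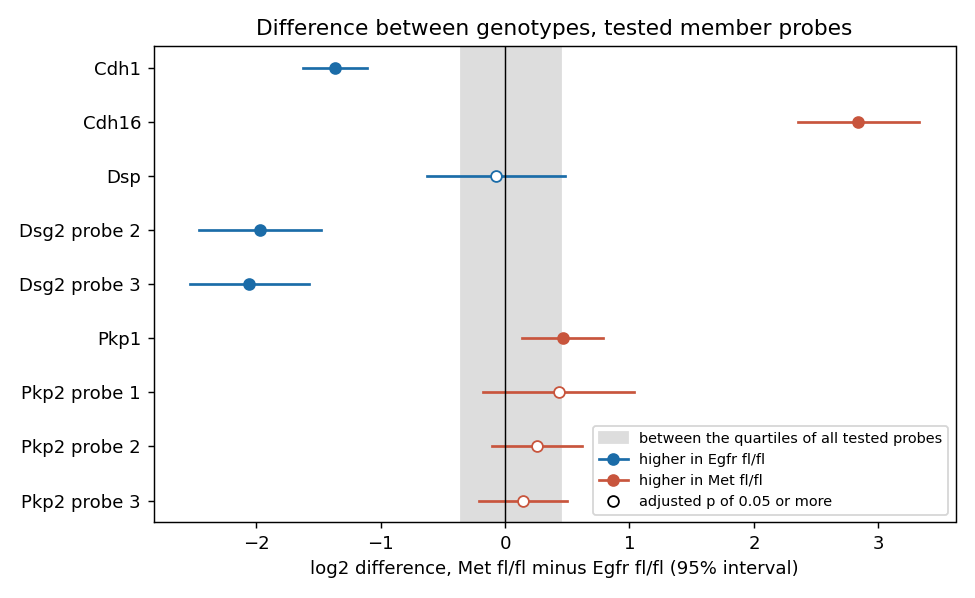
Fitted log2 difference, Met fl/fl minus Egfr fl/fl, of the 9 tested member probes on the horizontal axis, with 95% intervals from limma. Filled points had an adjusted p under 0.05, and the grey band lies between the quartiles of all 11578 tested probes, -0.35 and 0.45. The points of Cdh1, Cdh16 and Dsg2 lie outside the band and those of Dsp, Pkp1 and Pkp2 in or at its edge. The value for Cdh16 is fitted, not the bound.

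Dsp, which anchors keratin filaments at the desmosome, was detected on every array but varied more within Egfr fl/fl than between genotypes. Egfr fl/fl gave 230, 232 and 654 units for its probe (ILMN_2654997), and Met fl/fl gave 523, 339 and 281 units. Replicate 3 was the highest of the 6 arrays and replicates 1 and 2 were the lowest, so the groups overlapped. Egfr fl/fl had a log2 intensity of 8.55 ± 0.56 (SD, n = 3) and Met fl/fl one of 8.47 ± 0.13, a difference of -0.07 with a 95% interval of -0.63 to 0.48 (limma adjusted p = 0.839). Leaving out Egfr fl/fl replicate 3 turned the difference to 0.25 (limma adjusted p = 0.193), and array weights turned it to 0.16.

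Of the members, only 2 had an upstream sequence in the RefSeq promoter table for GRCm38.p6, and both are shown for that reason. They are Dsp, detected on all arrays, and Jup, detected on 1, and both encode plaque proteins of the desmosome. Sequences run 5′ to 3′ and end just before the outermost annotated start of the gene. Capitals mark the GC box GGGCGG or its reverse complement CCGCCC, a short motif bound by Sp1 and related factors.
Dsp, chr13:38151044-38151293, plus strand: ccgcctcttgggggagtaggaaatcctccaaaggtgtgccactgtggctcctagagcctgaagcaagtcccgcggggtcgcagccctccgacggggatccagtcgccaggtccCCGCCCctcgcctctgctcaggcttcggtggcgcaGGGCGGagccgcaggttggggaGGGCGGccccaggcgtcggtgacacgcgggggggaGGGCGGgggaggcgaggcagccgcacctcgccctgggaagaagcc
Jup, chr11:100397840-100398040, minus strand: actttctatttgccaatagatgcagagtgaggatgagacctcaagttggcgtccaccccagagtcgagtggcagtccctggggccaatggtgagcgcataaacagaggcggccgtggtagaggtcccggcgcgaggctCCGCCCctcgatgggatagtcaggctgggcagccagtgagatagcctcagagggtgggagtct
The 250 bases of Dsp hold 4 GC boxes and the 201 bases of Jup hold 1. A GC box occurs in 32.7% of all 32851 windows of the table at the length used for Dsp and in 24.8% at that used for Jup. The E-box CAGGTG or CACCTG, the motif bound by Snail and Zeb repressors, was searched on both strands and is in neither window. It occurs in 17.2% of all windows at the Dsp length and 14.5% at the Jup length. These matches describe letters only.

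Pkp2, the plakophilin that joins desmoplakin to the desmosomal cadherins in simple epithelia and heart, had 3 probes, all detected on all 6 arrays. For probe 3 (ILMN_2927565), the brightest, Egfr fl/fl gave 371, 394 and 569 units and Met fl/fl 866, 436 and 540 units. For probe 2 (ILMN_2665948) the values were 296, 321 and 517 against 714, 551 and 373 units, and for probe 1 (ILMN_2637122) 59.2, 74.96 and 208 against 230, 154 and 122 units. On each of the 3 probes the groups overlapped. On probe 1 replicate 3 of Egfr fl/fl stood at the level of the Met fl/fl arrays, after normalization 0.96 above replicates 1 and 2 on the log2 scale, whereas the same array was only 0.23 above them on probe 2 and 0.04 on probe 3. The log2 differences were 0.43 (95% interval -0.18 to 1.03) for probe 1, 0.26 (-0.10 to 0.62) for probe 2 and 0.14 (-0.21 to 0.50) for probe 3, with limma adjusted p of 0.236, 0.232 and 0.504. Without Egfr fl/fl replicate 3 probe 1 passed as higher in Met fl/fl, by 0.75 (adjusted p = 0.00496 in limma), and the other probes did not.

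The remaining desmosomal plaque genes were dim. Pkp1, the plakophilin typical of stratified epithelia such as skin, gave 8.31, 3.88 and 2.59 units in Egfr fl/fl, none detected, and 26.7, 18.8 and 12.6 units in Met fl/fl, all detected with deposited detection p-values of 0.0125 to 0.0338. Its fitted log2 difference was 0.46 ± 0.15 (SE), with an adjusted p of 0.0295 in limma. As a bound the Met fl/fl level was at least 1.20-fold higher. The call ended without Egfr fl/fl replicate 2 (limma adjusted p = 0.0819) or 3 (0.06), without Met fl/fl replicate 1 (0.0769) or 2 (0.0863), with median scaling (0.0926), with no filter (0.055) and with intensities under 16 raised to 16 (0.177). Jup, plakoglobin, which desmosomes and adherens junctions share, was detected on Met fl/fl replicate 1 alone, at 23.6 units, with the other 5 arrays between -9.29 and 7.90 units. Pkp3, the plakophilin found in most epithelia, lay between -6.90 and 10.2 units and was detected on 0 arrays. With no filter on dim probes the adjusted p was 0.291 for Jup, 0.702 for Pkp3, 0.787 for Dsc2 and 0.881 for Dsg2 probe 1 (limma). Failure of a probe to detect its transcript and absence of the transcript cannot be told apart from these arrays.

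**Figure D3:**
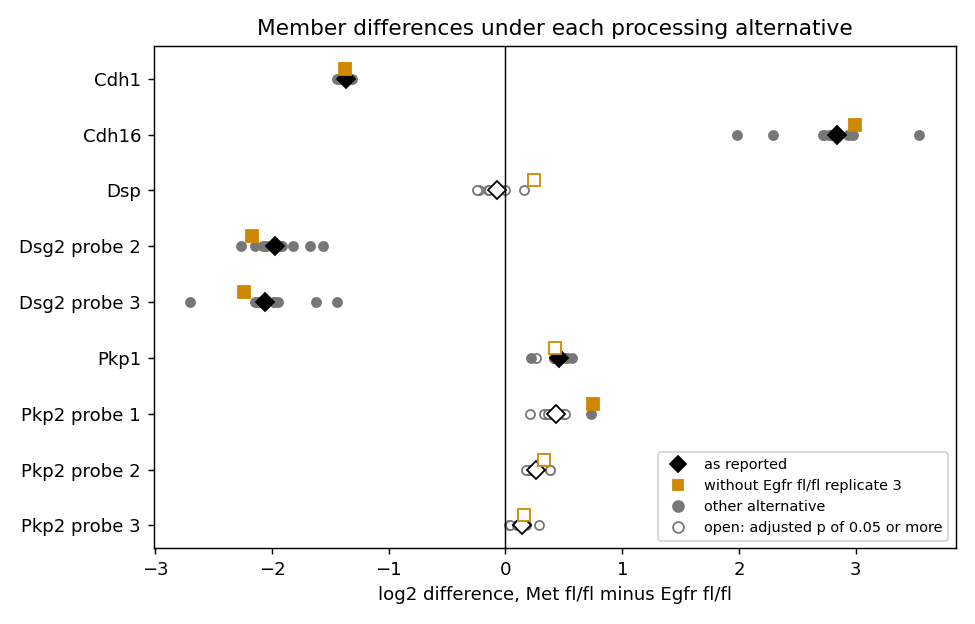
Log2 difference, Met fl/fl minus Egfr fl/fl, of the 9 tested member probes as reported (black diamonds), without Egfr fl/fl replicate 3 (orange squares, drawn slightly higher) and under the other processing alternatives (grey circles), with open symbols at an adjusted p of 0.05 or more. Cdh1, Cdh16 and both Dsg2 probes keep their side of 0 and filled symbols throughout, Dsp crosses 0 and Pkp1 has open and filled symbols.

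Related gene lists, chosen with earlier results of these data known, put the members beside their binding partners and regulators. Over all genes by brightest probe 41.4% passed, 22.8% as higher in Met fl/fl and 18.6% as higher in Egfr fl/fl. Whether the counts of any list depart from these shares was not tested. Among 28 further cadherins and protocadherins 23 had a probe and 7 were tested, of which 2 rose in Met fl/fl, 1 fell and 4 did not pass, with a median log2 difference of -0.05 against 0.07 over all genes tested. The count that fell became 2 without Egfr fl/fl replicate 1, with median scaling or with cyclic loess, and 3 with the replicate number as a block. Pcdh7, a protocadherin, was 2.89-fold higher in Met fl/fl (1.53 ± 0.20 SE, limma adjusted p = 0.000213), and its other tested probe differed by 0.53. Cdh13, T-cadherin, which is anchored to the membrane by a lipid and has no cytoplasmic tail, was 1.77-fold higher in Met fl/fl (limma adjusted p = 0.0284), but its other tested probe differed by -0.11 and the call ended without Egfr fl/fl replicate 1 (0.0792) or 2 (0.0849), without Met fl/fl replicate 3 (0.108), and with median scaling (0.0978) or intensities under 16 raised to 16 (0.0538). Pcdh1 was 2.04-fold higher in Egfr fl/fl (limma adjusted p = 0.00321). Of the other desmosome-linked genes 4 of 15 were tested, and Krt8 and Krt18, the simple-epithelial keratin pair that desmoplakin binds, were 1.77-fold and 1.41-fold higher in Egfr fl/fl (limma adjusted p = 0.000785 and 0.0217). The Krt18 call ended with median scaling (0.13), without the variance trend (0.0517), and without Met fl/fl replicate 1 (0.0617) or 2 (0.0741). Ppl, of the same list and named here after its values were seen, had probes that disagreed. Its brightest probe did not pass (0.32, limma adjusted p = 0.202), while its other tested probe differed by -0.87 (limma adjusted p = 0.01).

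For the catenins and other adherens junction genes 14 of 21 were tested, with a median of -0.25. Of these 0 passed as higher in Met fl/fl and 4 as higher in Egfr fl/fl, beside 22.8% and 18.6% of all genes. These counts became 1 and 4 when Egfr fl/fl replicate 3 was left out, and over all 17 alternatives they ran from 0 to 1 and from 2 to 7. Ctnnal1, an alpha-catenin relative, was 3.95-fold higher in Egfr fl/fl (-1.98 ± 0.19 SE, limma adjusted p = 3.54e-05). Nectin2, an immunoglobulin-type adhesion receptor of the same junctions, was 3.82-fold higher there (limma adjusted p = 7.14e-06), its other probes differing by -0.76 and -1.97. Ctnnb1 and Ctnna1, the beta- and alpha-catenin that tie classical cadherins to actin, are named here after their values were seen. Their log2 differences were 0.28 (limma adjusted p = 0.111) and -0.23 (0.101), smaller than that of Cdh1. The other probes of Ctnnb1 gave 0.37 and -0.63.

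Among transcription factors known to act on cadherin genes or on epithelial identity, 15 of 23 were tested (median 0.23). Of these 6 passed as higher in Met fl/fl and 3 as higher in Egfr fl/fl, beside 22.8% and 18.6% of all genes. The count higher in Met fl/fl was 3 in place of 6 with median scaling. It was 4 with cyclic loess, with no filter, without Egfr fl/fl replicate 1 or 2, and without Met fl/fl replicate 2 or 3. Over all 17 alternatives the counts ran from 3 to 7 for Met fl/fl and from 2 to 3 for Egfr fl/fl. Foxa1, a pioneer factor of endoderm, had a Met fl/fl level at least 7.21-fold higher (limma adjusted p = 1.15e-05), with detection on 2 Egfr fl/fl arrays. Hnf4a, a hepatocyte nuclear factor, was 2.70-fold higher there (1.43 ± 0.12 SE, limma adjusted p = 1.39e-05). Zeb2, a repressor of E-cadherin transcription, was 4.63-fold higher in Egfr fl/fl (limma adjusted p = 0.00118), with log2 intensities of 7.96, 8.27 and 6.58 on Egfr fl/fl replicates 1, 2 and 3 and 5.31 to 5.43 on the Met fl/fl arrays. Egfr fl/fl replicate 3 was the lowest of its group for Zeb2, as it was for Cdh2. That array was also lowest for the summed stellate cell and fibroblast markers. The brightest Acta2 probe gave 75.4% to 88.7% of those sums in Egfr fl/fl. The part of such cells in the Zeb2 result was not tested. Zeb1, a related repressor of E-cadherin named here after its values were seen, went the other way, 1.60-fold higher in Met fl/fl (0.68 ± 0.18 SE, limma adjusted p = 0.0119), a call that ended with median scaling (0.137). The probe labelled Tcf3 had an Egfr fl/fl level at least 3.37-fold higher (limma adjusted p = 0.000163), and this symbol has been used both for the E2A factor and for Tcf7l1. In the list of cadherin shedding and turnover 9 of 16 genes were tested and 1 passed in each direction (median 0.26), or 4 as higher in Met fl/fl and 2 as higher in Egfr fl/fl without Egfr fl/fl replicate 3. Without Egfr fl/fl replicate 2 the second count was also 2, and over all 17 alternatives the counts ran from 1 to 5 and from 1 to 2. The protease Mmp14 was 1.68-fold higher in Met fl/fl (limma adjusted p = 0.00763) and Ptprk, a receptor phosphatase found at cell contacts, 1.68-fold higher in Egfr fl/fl (limma adjusted p = 0.00189).

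**Figure D4:**
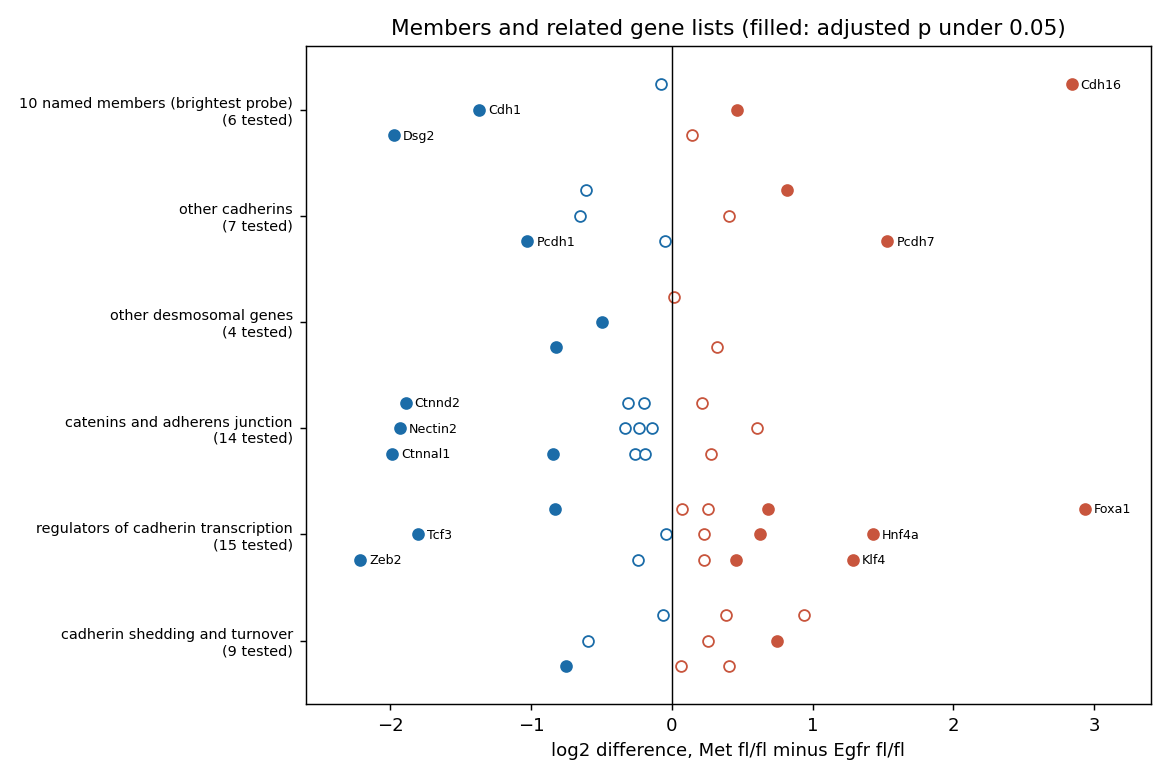
Log2 difference, Met fl/fl minus Egfr fl/fl, of each tested gene (brightest probe) of the members and the 5 related lists, with filled points at an adjusted p under 0.05. Labelled are genes past that threshold with a difference over 1 in either direction. Calls lie on both sides of 0 among the members and in 3 of the lists. Those of the other desmosomal genes (2 of 4 tested) and of the catenin list (4 of 14 tested) are all on the left. Over all genes 18.6% passed on the left and 22.8% on the right.

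Genes with a profile like that of 2 members over the 6 arrays were sought among 8087 other genes, by the Euclidean distance between log2 values centred on each gene's mean. Nearest to Cdh1 were Ctsz, a lysosomal cathepsin (distance 0.17), Pank1, a pantothenate kinase (0.184), and Gstm6, a glutathione transferase (0.192), with log2 differences of -1.31, -1.39 and -1.30. Nearest to Dsp were Zswim4 (0.137), Gart, an enzyme of purine synthesis (0.163), and Irgq (0.193). Their highest log2 intensity was on Egfr fl/fl replicate 3, at 7.29 for Zswim4, 9.72 for Gart and 9.28 for Irgq, as it was for Dsp at 9.19. With 6 arrays in 2 groups, such likeness is a description.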

How the data were processed

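A Qiagen kit for RNA and an Ambion kit for biotin-labelled cRNA were used, per the labels' protocols, and GenomeStudio 2011.1 for the arrays, per the submitters' processing notes. The deposited intensity was non-normalized, linear and below 0 for 26.9% to 31.1% of probes, so a background had been subtracted. A detection p-value was deposited beside each, named per the file headers. The authors' normalized intensity matrix served as an alternative. Not given in the sources used here are the array model, its annotation and its genome build, so no probe position is printed.

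In limma 3.58.1 (R 4.3.3) the normexp background model was estimated from the detection p-values. The offset was 16, followed by quantile normalization on the log2 scale, which understates changes of dim probes. Probes detected on at least 3 arrays were tested by lmFit and eBayes (variance trend on) with Benjamini-Hochberg adjustment over all 11578. A gene was represented by its brightest tested probe. Bounds apply where an array of the dimmer group did not detect the probe. The summed level of a marker list is the sum of normalized linear intensities less the offset, over the brightest probe of each gene. The 3 arrays per group limit precision. Old symbols were updated through RefSeq synonyms for 2906 of 18117 symbols. On simulated data for this comparison, with 11578 probes and 200 changed by 1 on the log2 scale, 51.5% were recovered. Far fewer probes changed in that simulation than passed in the data (39.8% of those tested), so recovery in the data may differ.

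The rule named every member probe and, from each related list, up to 2 passing genes in each direction, plus the 3 genes nearest to Cdh1 and to Dsp, predicted or unnamed models left out. The members and lists were chosen with earlier results of these data known. Alternatives covered background, offset, normalization, filter, variance trend, array weights, a replicate block, probe means and each array left out. A robust background estimate, and the alternatives for the related lists, were chosen after seeing the data.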

Additional observations from a re-analysis of the deposited data

How the results depend on the processing

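Cdh1, Cdh16 and both tested Dsg2 probes kept their direction and passed in every alternative in which they were tested, 17 for Cdh1 and Dsg2 probe 2 and 16 for Cdh16 and Dsg2 probe 3, the stricter filter having removed the last pair. Log2 differences ranged from -1.44 to -1.32 for Cdh1, 1.98 to 3.54 for Cdh16, and -2.26 to -1.56 and -2.70 to -1.44 for Dsg2 probes 2 and 3. Dsp changed sign to 0.16 with array weights, and with arrays left out it ran from -0.24 to 0.25, passing in none of its 17 alternatives. Pkp1 passed in 9 of 16. With array weights Pkp2 probes 1 and 2 passed as higher in Met fl/fl, by 0.73 and 0.38. The count of member probes higher in Met fl/fl, 2 as reported, was 1 with intensities under 16 raised to 16, with median scaling and with no filter, 0 with detection p under 0.01 on all 6 arrays, 4 with array weights and 1 to 2 with an array left out. The strict filter left 6 member probes, of which 2 passed, and 2 member genes passed. Over all probes 4613 passed as reported and 3308 to 5834 with an array left out, and with array weights 6993, of which 3818 were higher in Met fl/fl and 3175 the other way. Median scaling gave 1439 higher in Met fl/fl and 1731 the other way, against 2503 and 2110 as reported. Deviations of same-numbered arrays from their group means correlated at 0.24, -0.15 and 0.32, and not every array correlated best with its own number. With 3 arrays per group such deviations depend on one another, so whether the replicate numbers pair the arrays could not be decided. A fit with the replicate number as a block called 5101 probes, 5 of them member probes with a log2 difference of -1.37 for Cdh1, and left every member's call as it was. The causes of these changes were not tested. The members at or near background, Cdh2, Dsc2, Jup, Pkp1, Pkp3 and Dsg2 probe 1, are those whose differences the arrays cannot measure well.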
